A study of Mus musculus with 8 samples.

Results

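Ebf1, Ebf2, Zfp423 and Zfp467 are transcription factors of the step at which a mesenchymal cell commits to become a preadipocyte. They are 4 of the 20644 named genes on the array, and were taken with every probe whose RefSeq accession belongs to them, which gave 9 of 39383 probes. Ebf1 and Ebf2 had 1 probe each, Zfp423 had 3 and Zfp467 had 4, and all 9 passed the filter, which asked for a signal well above background on 2 or more of the 8 arrays. The arrays measured total RNA of 3T3-L1 cells, a mouse preadipocyte line that becomes fat cells under a hormone mix. WT cells were the unmodified line, and sh8 cells were the same line stably carrying shRNA-8, a short hairpin RNA directed at the long noncoding RNA slincRAD. Both were taken at days -2, 0, +2 and +4, with 1 array for each line and day. At confluence, called day 0, both lines were put on medium with 167 nM insulin, 1 µM dexamethasone and 0.5 mM isobutylmethylxanthine. The sources used here do not say whether sh8 is 1 clone or a pool. The samples hold no cells with a control hairpin, and slincRAD itself was not analysed here.

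EBF proteins, or early B-cell factors, bind palindromic DNA as dimers, and in fat precursors they act upstream of the adipocyte regulators Pparg and Cebpa. Zfp423 is a zinc finger protein that marks committed preadipocytes, makes them responsive to bone morphogenetic proteins (BMP) through SMAD proteins, and binds EBF proteins. In white fat it holds back the thermogenic genes that Ebf2 activates. Zfp467 is a zinc finger protein that favours fat over bone in marrow stromal cells.

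All levels are on a log2 scale on which 0 is the 75th percentile of that array, so a probe can be followed from array to array, and levels of different probes cannot be ranked. That percentile lay between 760 and 1239 intensity units, the share of probes well above background was 64.9% to 81.7%, and no spot was saturated. Differences between the lines were fitted with limma over all 8 arrays with day as a block, and a probe was called when its Benjamini-Hochberg adjusted p was under 0.05. The labels do not state that each array is a culture of its own. The spread behind each p-value is therefore that of the line difference over the days, or of the day difference over the lines, and it may be technical in part. By their scan identifiers, the arrays of days -2 and 0 were read in one scan and those of days +2 and +4 in another. Arrays of one scan are taken here as one slide, so slide and induction cannot be told apart.

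The 250 bases before the annotated starts are shown because Ebf1 and Zfp423 moved together between the lines and Zfp467 moved the other way. RefSeq's table for the GRCm38.p6 assembly held such windows for 3 of the 4 genes, and each is written 5′ to 3′ on the gene's strand with capitals marking a motif match. Searches covered both strands.
Ebf1, chr11:44617850-44618099, plus strand: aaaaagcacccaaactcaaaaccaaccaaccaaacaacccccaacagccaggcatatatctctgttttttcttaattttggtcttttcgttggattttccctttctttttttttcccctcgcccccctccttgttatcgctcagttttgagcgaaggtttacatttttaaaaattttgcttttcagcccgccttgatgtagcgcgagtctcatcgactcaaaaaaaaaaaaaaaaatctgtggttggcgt
Zfp423, first start, chr8:87959596-87959845, minus strand: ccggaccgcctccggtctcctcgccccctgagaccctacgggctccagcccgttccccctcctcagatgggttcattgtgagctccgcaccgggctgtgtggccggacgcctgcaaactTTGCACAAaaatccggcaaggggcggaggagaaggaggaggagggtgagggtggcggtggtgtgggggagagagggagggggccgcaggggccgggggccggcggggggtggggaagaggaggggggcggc
Zfp423, second start, chr8:87804440-87804689, minus strand: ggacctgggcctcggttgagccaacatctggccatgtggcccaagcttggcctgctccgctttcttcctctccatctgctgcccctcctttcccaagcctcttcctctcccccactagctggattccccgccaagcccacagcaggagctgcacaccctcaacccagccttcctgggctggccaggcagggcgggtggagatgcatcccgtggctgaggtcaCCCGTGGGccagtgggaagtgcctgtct
Zfp467, chr6:48445091-48445340, minus strand: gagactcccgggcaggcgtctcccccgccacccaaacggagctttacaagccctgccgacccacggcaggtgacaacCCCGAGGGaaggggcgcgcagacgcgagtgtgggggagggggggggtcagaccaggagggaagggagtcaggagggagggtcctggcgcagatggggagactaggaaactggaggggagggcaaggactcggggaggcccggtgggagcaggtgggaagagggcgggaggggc

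The first Zfp423 window held TTGCACAA 131 bases before the start, a match to TTGCNNAA, a form of the C/EBP motif that 9.56% of 32851 mouse promoter windows of this length contain. The second Zfp423 window held CCCGTGGG 28 bases before the start, and the Zfp467 window held CCCGAGGG 173 bases before it. Both match CCCNNGGG, the core of the EBF palindrome, which 11.8% of the windows contain. Neither the Ebf1 window printed nor that of its second start held either motif. The printed Ebf1 window was 40% G and C, and that of its second start was 52%. The Zfp423 windows were at 71.6% and 64.8% and that of Zfp467 at 70.4%, with a median of 52.4% over all windows.

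Ebf1 was lower in sh8 cells on every day, and 52.4% of the probes tested had a difference of 1 sign on all 4 days. Its levels in WT were 0.34, 0.59, 0.30 and 0.12 at days -2, 0, +2 and +4, and in sh8 they were -0.69, -0.18, -0.52 and -0.51. All 4 WT arrays lay above all 4 sh8 arrays, a separation shown by 17.1% of the probes tested. The difference, sh8 minus WT, was -1.04, -0.77, -0.82 and -0.63 on the 4 days, and fitted over them it fell by 0.81 ± 0.11 (SE, 8 arrays), 1.76-fold lower, with a limma adjusted p of 0.0147. Day 0 was the highest day in both lines. In order of level the 4 WT arrays came first, and WT day -2 and day +2, and sh8 day +4 and day +2, were closer to each other than the residual SD of 0.12.

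Zfp423 was also lower in sh8 by its brightest probe, A_55_P2102335, with an amount that changed little from day to day. This probe read -0.97, 0.45, -0.21 and -0.09 in WT and -1.77, -0.33, -0.97 and -0.63 in sh8. Each day's sh8 array lay below its WT partner, by -0.80, -0.78, -0.76 and -0.55, although the lines overlapped because WT at day -2 was as low as sh8 at day +2. The fitted difference was -0.72 ± 0.096 (SE, 8 arrays), 1.65-fold lower, with an adjusted p of 0.0150.

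The 2 dimmer Zfp423 probes, which carry the same RefSeq accession, gave smaller differences. A_55_P2148921 read -3.25, -2.69, -3.31 and -3.62 in WT and -3.49, -3.17, -4.16 and -4.10 in sh8, a difference of -0.51 ± 0.13 with an adjusted p of 0.0445. A_51_P328442 read -3.10, -2.03, -2.40 and -2.47 in WT and -3.04, -2.54, -2.86 and -2.77 in sh8, and its difference of -0.30 ± 0.13 was not called (adjusted p = 0.145). On day -2 this probe was 0.065 higher in sh8, and on the other days it was lower.

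Zfp467 ran the other way, with 3 of its 4 probes called higher in sh8. The probes A_55_P2126950 and A_55_P2126951, both assigned to transcript NM_001085417, rose 2.16-fold and 2.15-fold. A_55_P2126950 read -2.15, -1.52, -1.18 and -1.43 in WT and -1.62, -0.30, 0.17 and -0.091 in sh8, and A_55_P2126951 read -3.33, -2.90, -2.96 and -3.13 in WT and -2.79, -1.75, -1.50 and -1.86 in sh8. In both the gap between the lines was 0.54 at day -2 and between 1.15 and 1.46 on the later days. The lines did not overlap for A_55_P2126951, and for A_55_P2126950 sh8 at day -2 lay among the WT arrays. The fitted difference of A_55_P2126950 was 1.11 ± 0.17 (adjusted p = 0.0183), and that of A_55_P2126951 had an SE of 0.18 (adjusted p = 0.0194).

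The remaining Zfp467 probes are assigned to transcript NM_020589 and differed from each other. A_55_P2175405 read -2.14, -2.27, -1.10 and -1.51 in WT and -1.60, -1.81, 0.051 and -0.95 in sh8, a rise of 0.68 ± 0.15 (adjusted p = 0.0332) with sh8 higher on each day. The brightest probe, A_55_P2175400, read 0.70, 0.85, 0.11 and -0.059 in WT and 0.88, 1.08, 0.48 and -0.054 in sh8. At day +4 its lines were level, and its difference of 0.20 ± 0.10 was not called (adjusted p = 0.199). Over the 8 arrays the NM_001085417 probes had a Pearson r of 0.96 with each other, while A_55_P2175400 had r of -0.17, -0.47 and 0.083 with the other 3 Zfp467 probes. Which transcript each probe detects was not tested.

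Ebf2 was dim, with a signal well above background on 6 of the 8 arrays. It read -5.18, -5.81, -4.50 and -4.08 in WT and -5.63, -5.72, -4.84 and -4.89 in sh8, and was not well above background on either array of day 0. The lines overlapped, and the difference of -0.38 ± 0.17 was not called (adjusted p = 0.151).

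**Figure D1:**
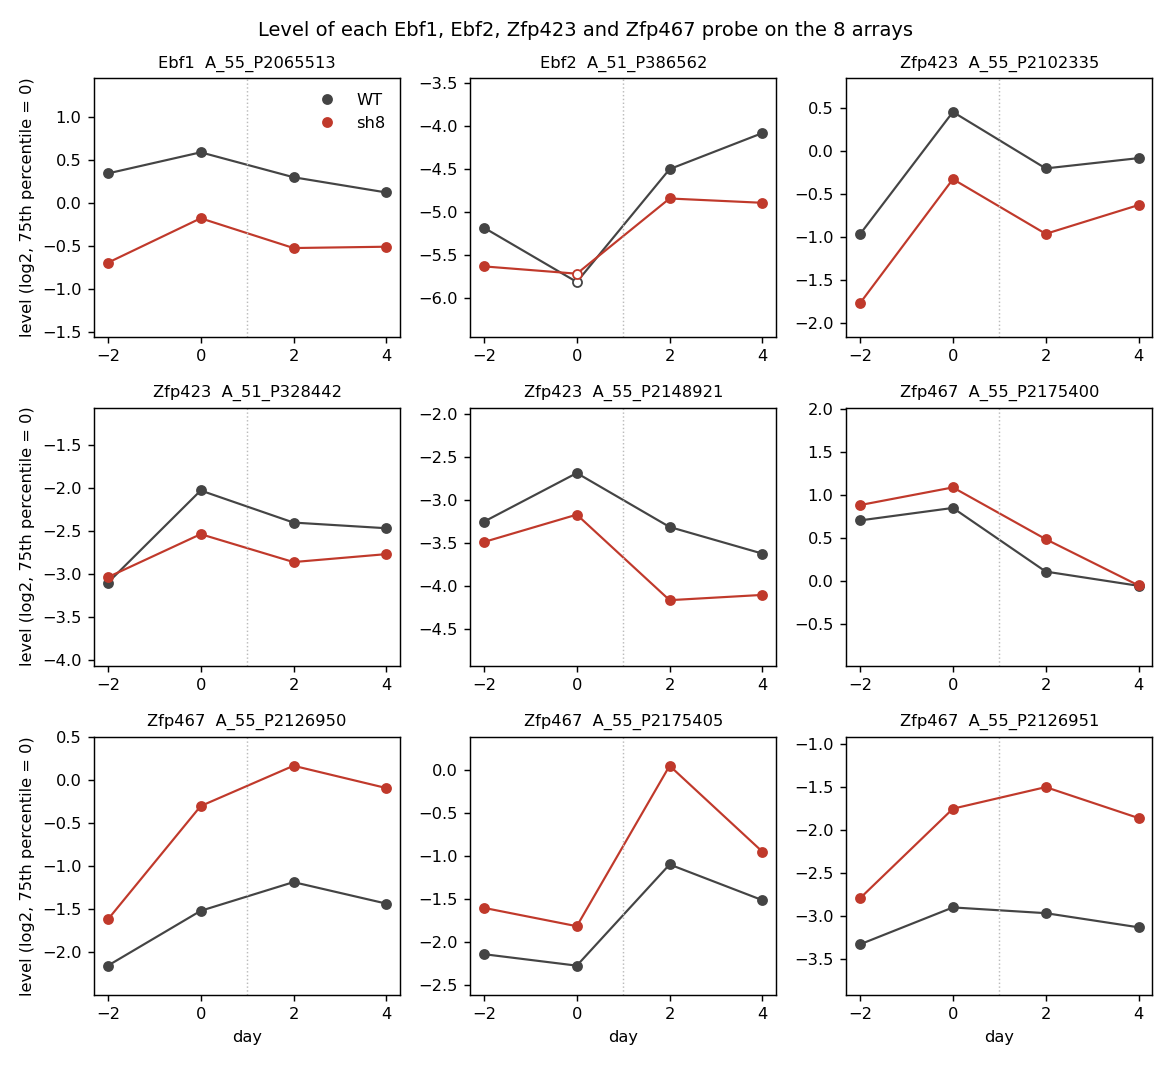
Level of each of the 9 probes of Ebf1, Ebf2, Zfp423 and Zfp467 by day in WT (grey) and sh8 (red), 1 point per array, log2 relative to the array's 75th percentile, with 3 log2 units on every vertical axis. Open points were not well above background, and the dotted line separates the slides. The Ebf1 lines stay apart on all 4 days. For the 2 Zfp467 probes A_55_P2126950 and A_55_P2126951 the lines are apart at day -2 and farther apart from day 0.

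Between the lines, 3 member probes were higher and 3 lower, so 6 of 9 were called against 26.6% of the 32022 probes tested (16.2% higher and 10.4% lower). Probes of one gene are not separate members. By the brightest probe of each gene 0 of 4 members were higher and 2 lower, against 15.9% and 12.4% of named genes. Of the called probes on the whole array 60.9% were higher in sh8, a share of 48.2% to 72.5% under the other scalings, which put the median of all probes between 0.0015 and 0.21 instead of 0.12. All 9 member differences kept their sign under each scaling. Of the 6 calls, 2 did not hold in every scaling or filter. A_55_P2175405 of Zfp467 had adjusted p of 0.060, 0.051 and 0.059 with quantile scaling, with normexp and in the authors' deposited values. A_55_P2148921 of Zfp423 had 0.054 with the percentile over probes above background on all arrays and 0.064 without a filter. A_51_P328442 of Zfp423, which is not among the 6, was called with normexp (-0.38, adjusted p = 0.040) and in no other scaling or filter.

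The lines were compared within each slide as well. On the first slide Ebf1 was -0.90, Zfp423 A_55_P2102335 was -0.79 and Zfp467 A_55_P2126950 was 0.88. On the second they were -0.73, -0.65 and 1.35. No probe on the array passed on the first slide alone (0 called by limma, 10000 at an unadjusted p under 0.05), and 3 member calls were kept on the second alone. Without day -2 the calls of Ebf1, Zfp423 A_55_P2102335 and the NM_001085417 probes were kept. Without day 0, day +2 or day +4 none of the 6 was, although Ebf1 stayed between -0.88 and -0.81 and A_55_P2126950 between 1.03 and 1.08.

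Markers of other cell types were also compared between the lines, where 15.9% of all named genes were higher and 12.4% lower in sh8. Of 13 macrophage and leukocyte markers tested 8 were higher in sh8 and 0 lower, with a median of 0.46, and their summed level, in multiples of the 75th percentile, was 6.05 to 6.90 in WT and 8.36 to 10.1 in sh8. Of 10 B lymphocyte markers, a cell type in which Ebf1 is a defining factor, 4 were higher and 1 lower, with sums of 1.14 to 1.62 in WT and 1.96 to 2.37 in sh8. Endothelial and pericyte markers were higher for 3 of 8, lung epithelium markers for 3 of 13 with 1 lower, and olfactory neuron markers for 1 of 7. The macrophage marker Cd163 and the B-cell marker Igll1 were not well above background on any array. The part of these RNAs in the member differences was not tested.

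**Figure D2:**
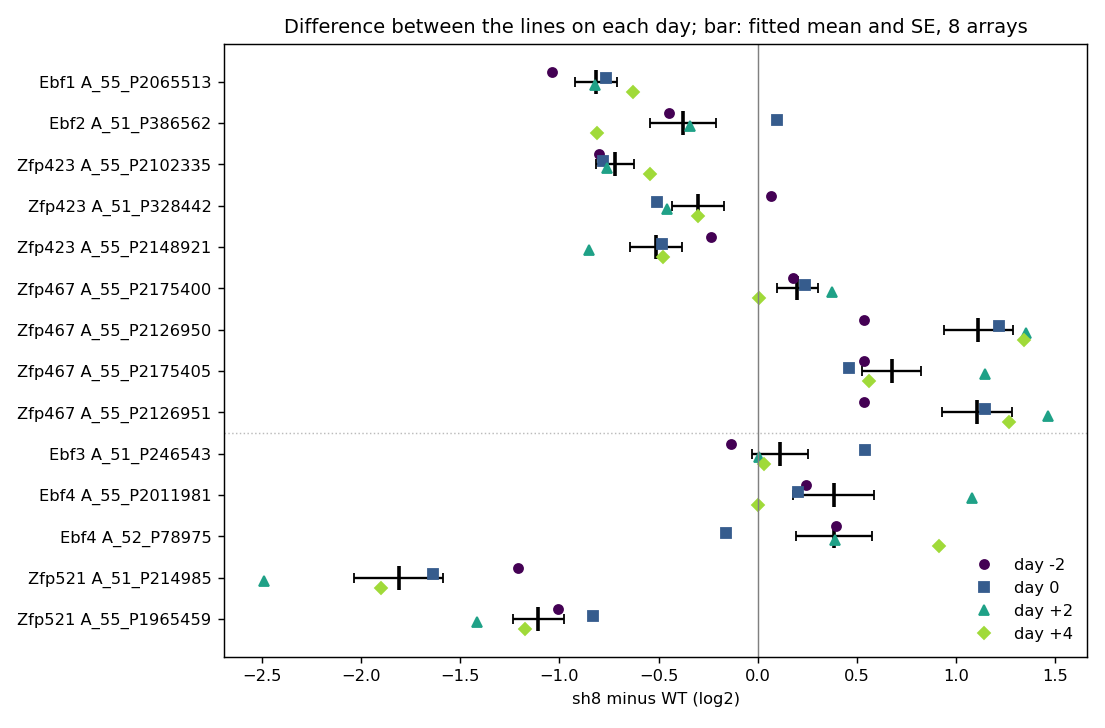
Difference between sh8 and WT (log2) on each of the 4 days for the 9 member probes and, under the dotted line, 5 probes of their paralogues. Black bars give the fitted mean and its SE over 8 arrays. Ebf1 and Zfp423 A_55_P2102335 lie left of 0 on every day, all 4 Zfp467 probes lie right of 0, and Zfp521 lies farthest left.

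The paralogues did not follow one pattern. Zfp521, the relative of Zfp423 that represses Ebf1 activity and fat differentiation, was lower in sh8 by both probes, at -1.81 ± 0.22 (A_51_P214985, adjusted p = 0.0138) and -1.11 ± 0.13 (A_55_P1965459, adjusted p = 0.0128). Its brighter probe separated the lines without overlap. Ebf3 differed by 0.11 ± 0.14 (adjusted p = 0.575), and the Ebf4 probes by 0.38 each (adjusted p = 0.211 and 0.184), so neither was called. Over the 8 arrays Ebf1 had a Pearson r of 0.89 with Zfp521 A_51_P214985 and of 0.74 with Zfp423 A_55_P2102335, values that share the scaling of each array and the difference between the lines.

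From day -2 to day 0, before the hormone mix, Zfp423 was the member with the largest difference. A_55_P2102335 was higher at day 0 by 1.42 in WT and 1.44 in sh8, a fitted 1.43 ± 0.14, or 2.69-fold. Its limma adjusted p of 0.0531 was the lowest value reached in this comparison. The adjustment gave other probes the same value, so it does not rank this probe first. Hence 0 probes on the array (0%) and 0 members were called by limma, with 8235 probes (25.7%) at an unadjusted p under 0.05. A_55_P2102335 passed with normexp, with a filter that kept probes above background on all 8 arrays, and with a variance trend. Under these 2155, 2232 and 2369 probes were called. The other Zfp423 probes differed by 0.79 (adjusted p = 0.0956) and 0.44, the Zfp467 probe A_55_P2126950 by 0.98 (adjusted p = 0.102) and Ebf1 by 0.38 (adjusted p = 0.200). These arrays shared the first slide, and on that slide alone the Zfp423 value was the same, with an adjusted p of 0.118.

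From day 0 to day +2 there were 2 calls among the 9 member probes against 11.3% of all probes (8.49% higher and 2.84% lower). By the brightest probe of each gene 0 of 4 members were higher and 1 lower, against 8.68% and 3.55% of named genes. Zfp423 A_55_P2102335 fell by 0.65 (adjusted p = 0.0472), by 0.66 in WT and 0.64 in sh8, a call that was lost in 4 of the 8 alternative scalings, filters and fit settings. Zfp467 A_55_P2175405 rose by 1.52 (adjusted p = 0.0223), by 1.18 in WT and 1.86 in sh8. The brightest Zfp467 probe, A_55_P2175400, went the other way by -0.67 and missed the threshold (adjusted p = 0.0508). With the main scaling Ebf2 was at least 1.83-fold higher at day +2 than at day 0, where both arrays gave only a bound. Its fitted change of 1.09 was not called (adjusted p = 0.0508). Over 7 alternative scalings, filters and fit settings that change ran from 0.24 to 1.09 and was called in 1. From day +2 to day +4 limma called 0 probes on the array (0%), with 1756 (5.48%) at an unadjusted p under 0.05. The member changes ran from -0.71 for A_55_P2175405 to 0.23 for Zfp423 A_55_P2102335.

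After induction, with the mean of days +2 and +4 set against that of days -2 and 0, 3 member probes rose and 2 fell, 5 of 9 against 35.7% of all probes (25.7% higher and 9.98% lower). By the brightest probe of each gene 1 of 4 members was higher and 1 lower, against 25.2% and 11.4% of named genes. Of all probe calls on the array 72.1% were higher, a share that came to 51.5% to 69.3% under the other scalings. Ebf2 rose by 1.01 ± 0.17 (adjusted p = 0.0120), by 1.21 in WT and 0.81 in sh8, and its 4 later arrays lay above its 4 earlier ones, as for 23.4% of all probes. With quantile scaling its change was 0.57 (adjusted p = 0.091), with normexp 0.21 (adjusted p = 0.086) and in the authors' deposited values 0.58 (adjusted p = 0.087), so the call of this dim probe was lost in each.

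The Zfp467 probes split after induction. A_55_P2175405 rose by 1.08 ± 0.15 (adjusted p = 0.00761) and A_55_P2126950 by 0.76 ± 0.17 (adjusted p = 0.0271), while A_55_P2175400 fell by 0.76 ± 0.10 (adjusted p = 0.00735). The earlier and later arrays did not overlap for A_55_P2175400 and A_55_P2175405, which name the same transcript and moved in opposite directions in both lines. A_55_P2126951 differed by 0.33 and was not called (adjusted p = 0.203). Without day -2 the change of A_55_P2126950 was 0.27 (adjusted p = 0.167), and its call was also lost without day +2 or day +4.

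Ebf1 differed by -0.17 (adjusted p = 0.268), and Zfp423 A_55_P2102335 by 0.18 (adjusted p = 0.193). The Zfp423 value depended on which earlier day was used, at 0.90 (adjusted p = 0.0220) with day -2 alone and -0.53 (adjusted p = 0.058) with day 0 alone. Zfp423 A_55_P2148921 fell by 0.65 ± 0.13 (adjusted p = 0.0190), a call lost without day 0 or day +4, and A_51_P328442 differed by 0.051 (adjusted p = 0.783). Without day +4 only A_55_P2175405 was still called among the members. Within WT alone or sh8 alone none was.

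Lung epithelium markers were high on the second slide in both lines. Of 13 tested 12 rose and 0 fell, with a median of 3.90 beside 0.12 for all named genes. Their summed level was 8.76 to 11.1 on the first slide and 22.6 to 35.4 on the second. The surfactant gene Sftpc was not well above background on any array of the first slide and at least 145-fold higher on the second, and Napsa, Nkx2-1, Scgb3a1 and Slc34a2 were likewise above background on the second slide only. Of all named genes 25.2% rose and 11.4% fell. Macrophage markers rose for 9 of 13 and fell for 2, B lymphocyte markers rose for 6 of 10, endothelial markers for 4 of 8 and olfactory neuron markers for 2 of 7. Their part in the changes of Ebf2, Zfp423 and Zfp467 after induction was not tested.

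**Figure D3:**
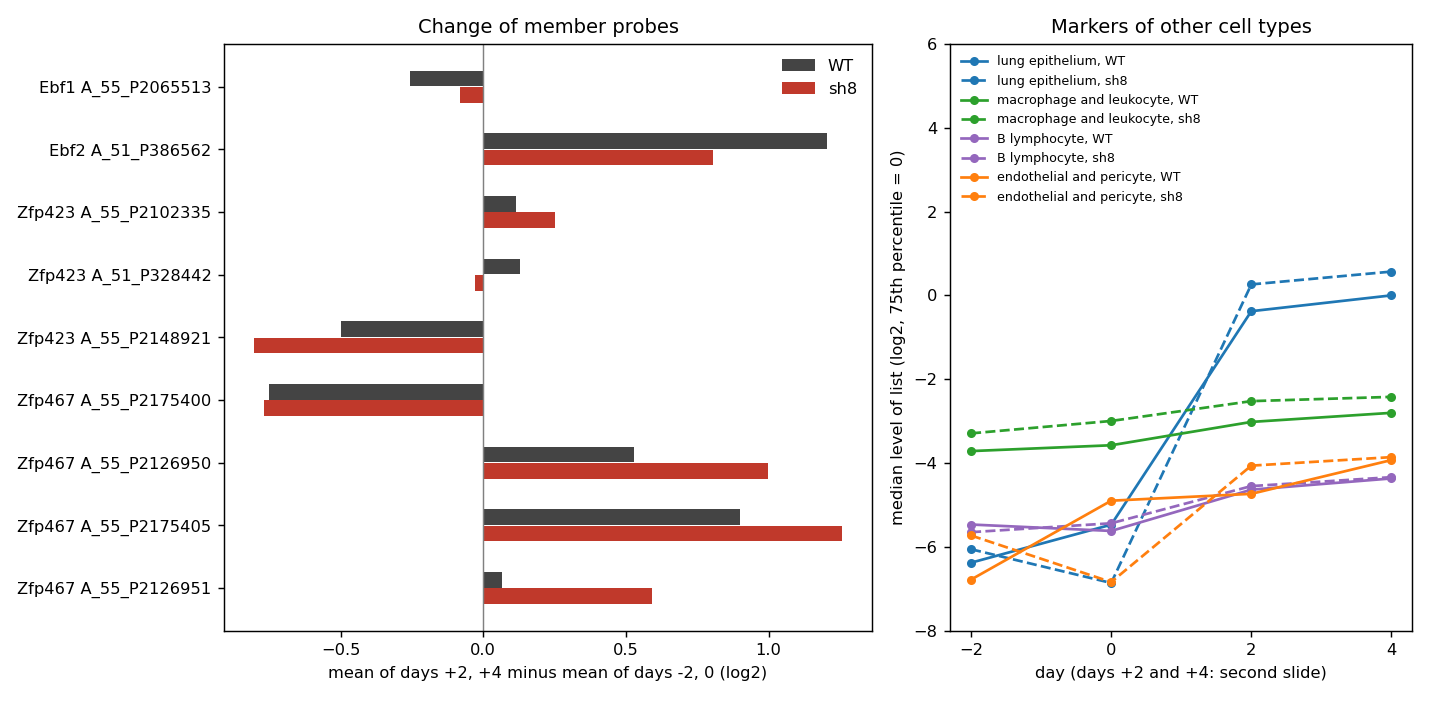
Left, mean of days +2 and +4 minus mean of days -2 and 0 (log2) for each member probe in WT (grey bars) and sh8 (red bars), 4 arrays per line. Right, median level on each array of the marker lists of 4 other cell types (log2 relative to the array's 75th percentile), solid for WT and dashed for sh8. Ebf2 and Zfp467 A_55_P2175405 have long bars to the right in both lines, and the lung epithelium median rises from below -5 on the first slide to between -0.38 and 0.57 on the second.

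The difference between the lines was also set against itself before and after induction. No probe was called in this interaction by limma (0 of 32022, 0%, with 6383, or 19.9%, at an unadjusted p under 0.05), and the member adjusted p-values ran from 0.362 to 0.966. The NM_001085417 probes had the largest member values, 0.47 and 0.53, with wider gaps on the later days.

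Genes around the members were described by lists of their pathway, with each gene given by its brightest probe and read against all named genes, of which 15.9% were higher and 12.4% lower in sh8, with a median of 0.075. Among 18 of 21 BMP pathway genes that were tested, 4 were higher and 3 lower, with a median of 0.087. The BMP antagonist Grem1 fell by 1.88 ± 0.25 (adjusted p = 0.0150) and the BMP target Id1 fell by 0.69 ± 0.11 (adjusted p = 0.0195). The inhibitory Smad7 rose by 0.79 ± 0.13 (adjusted p = 0.0209) and the receptor Acvr2b by 0.56 ± 0.11 (adjusted p = 0.0247).

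Adipogenic genes downstream of EBF factors had 1 higher and 4 lower of 15 tested, with a median of -0.45. Pparg, the master regulator of fat differentiation, fell by 1.59 ± 0.17 (adjusted p = 0.0118), the fatty acid carrier Fabp4 by 1.53 ± 0.13 (adjusted p = 0.0100) and the lipoprotein lipase Lpl by 1.39 ± 0.17 (adjusted p = 0.0137). The desaturase Scd1 rose by 1.22 ± 0.22 (adjusted p = 0.0226). Cebpa differed by 0.37 ± 0.15 and was not called (adjusted p = 0.131).

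Thermogenic genes downstream of Ebf2 had 2 higher and 2 lower of 10 tested, with a median of 0.33. The coactivators Ppargc1a and Ppargc1b fell by 1.71 ± 0.31 (adjusted p = 0.0233) and 1.69 ± 0.094 (adjusted p = 0.00814). Ppara rose by 0.57 ± 0.093 (adjusted p = 0.0202), though its other probe differed by 0.036. Prdm16 was 0.35 higher near background (adjusted p = 0.0409), a direction that turned to -0.0031 with quantile scaling and -0.065 in the authors' deposited values.

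Among 23 partners and chromatin regulators of EBF and Zfp423 proteins, 1 was higher and 6 lower, with a median of -0.021. The Notch target Hes1 fell by 0.89 ± 0.16 (adjusted p = 0.0221), and the histone methyltransferases Ehmt2 and Ezh2 by 0.53 ± 0.094 (adjusted p = 0.0230) and 1.04 ± 0.19 (adjusted p = 0.0235). The retinoic acid receptor Rara rose by 0.65 ± 0.12 (adjusted p = 0.0256), with 0.091 for its other probe.

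Bone genes, which are opposed to the fat fate that Zfp467 favours, were higher for 4 of 13 and lower for 0, with a median of 0.24. The matrix protein Spp1 rose by 1.49 ± 0.14 (adjusted p = 0.0104), the parathyroid hormone receptor Pth1r by 0.93 ± 0.13 (adjusted p = 0.0165) and Msx2 by 0.72 ± 0.11 (adjusted p = 0.0190). Pth1r missed the threshold with normexp.

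Of 22 preadipocyte markers 19 to 22 were well above background on each array. In sh8 3 were higher and 7 lower, with a median of -0.26. Wnt6 fell by 2.08 ± 0.15 (adjusted p = 0.00819), and the surface proteins Thy1, Cd24a and Ly6a rose by 1.21 ± 0.12 (adjusted p = 0.0112), 1.35 ± 0.16 (adjusted p = 0.0128) and 1.45 ± 0.18 (adjusted p = 0.0137). As for the members, none of these list calls held on the first slide alone or without day 0, day +2 or day +4.

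**Figure D4:**
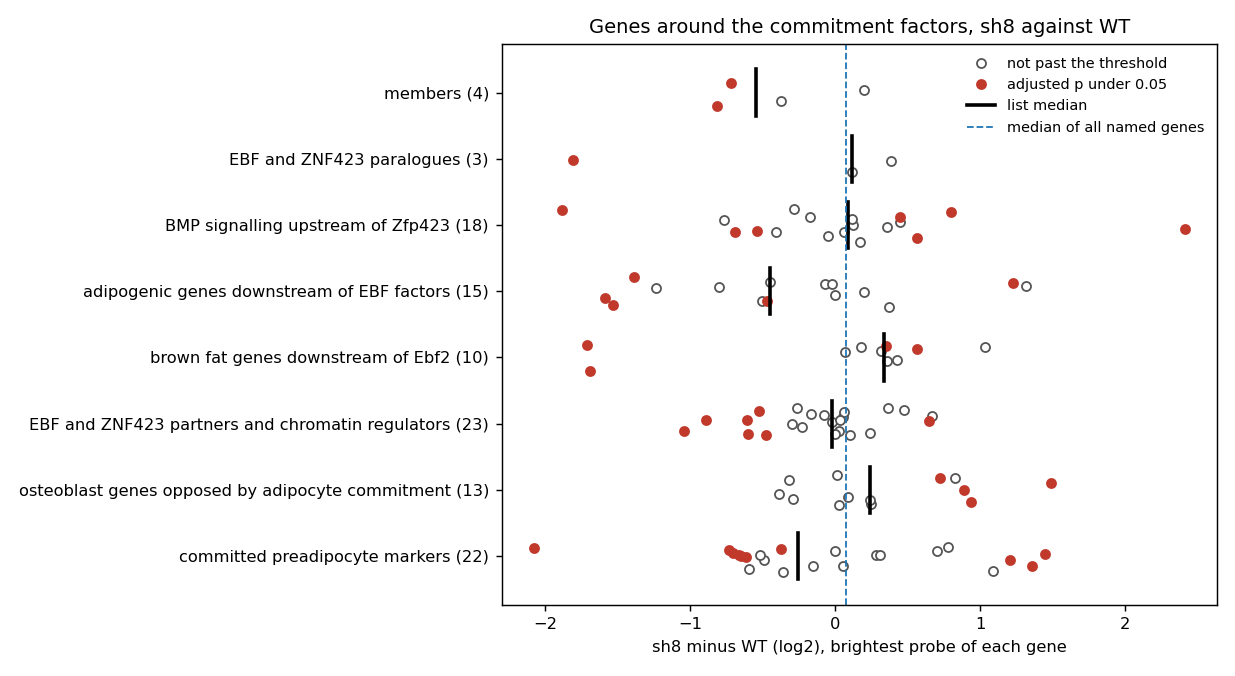
Difference between sh8 and WT (log2) for each tested gene of the 8 lists, 1 point per gene by its brightest probe, filled where the adjusted p is under 0.05. The black bar is the list median and the dashed line the median of all named genes, 0.075, and the number tested is in parentheses. Adipogenic genes lie mostly left of the dashed line, with a median of -0.45, and the called bone genes all lie right of it.

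After induction the adipogenic list had 9 of 15 genes higher and 1 lower, with a median of 0.76, read against 25.2% higher, 11.4% lower and a median of 0.12 for named genes. Pparg rose by 0.76 (adjusted p = 0.0257), Cebpa by 0.68 (adjusted p = 0.0267), Fabp4 by 1.42 (adjusted p = 0.00338), the fatty acid transporter Cd36 by 2.67 (adjusted p = 0.0116) and Scd1 by 1.19 (adjusted p = 0.0149), and the glucose transporter Slc2a4 was at least 1.38-fold higher. Thermogenic genes rose for 4 of 10 and fell for 1, with the deiodinase Dio2 at 2.30, Cox7a1 at 0.57 and Ppargc1b at -0.72. Prdm16 was called but close to background on both sides, and no fold is given.

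BMP genes rose for 5 of 18 and fell for 3, with Id1 at 0.81, the antagonist Nog at 2.02, Id3 at 0.54 and Smad6 at -0.77. Partners rose for 6 of 23 and fell for 3, with the corepressors Tle1 and Tle3 at 0.86 and 0.58, the retinoid receptor Rxra at 0.73 and Rarg at -0.68. Bone genes rose for 4 of 13 and fell for 2, with the phosphatase Alpl at 3.50, Runx2 at -1.02 (its other probe -0.19, not called) and Spp1 at -0.68. Ibsp was called near background and is given no fold. Preadipocyte markers rose for 7 of 22 and fell for 5, with Cd24a at 2.35, Cd34 at 1.67, Dlk1 at -0.99 and Icam1 at least 2.32-fold higher. The lung and leukocyte marker changes described above lie in the same arrays, and their part in these list changes was not tested.

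The named genes whose course over the 8 arrays was most like each member were found among 14727 that were above background on at least 6 arrays. For Ebf1 these were Prr14, Hook2 and Commd8, with Pearson r of 0.995, 0.988 and 0.988. For Zfp423 they were Dcp1b, Apoc1 and Acox3 at 0.994, 0.993 and 0.987. For Ebf2 they were Klra5, Fgfr3 and Nadk at 0.970, 0.967 and 0.965, and for Zfp467, by A_55_P2175400, Tmem164, Lrrc49 and Erap1 at 0.989, 0.977 and 0.973. The highest of 14727 values of r over 8 arrays can be this large by selection alone. They also share the array scaling and the differences between lines, days and slides, and a link between these genes and the members was not tested.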

How the data were processed

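Per the file headers, Agilent Feature Extraction 11.0.1.1 read every array in a single colour, and the authors deposited a processed intensity for each spot. The authors' deposited value table is on a log2 scale with a median of 6.38 in each column, no centring per gene and the same direction, and each column correlated best with its own array. The sources used here do not give how its values were made. The series description names another array maker than the files do.

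After 1377 control spots were left out and repeat spots averaged, 39429 probes remained, and 46 were dropped for an outlier flag. RefSeq accessions gave symbols to 27207 of 39383 probes from a GRCm38.p6 table, used for names and promoter windows, since the headers name build mm9. Values are log2 processed intensity minus the array's 75th percentile. The 32022 probes well above background on at least 2 of 8 arrays were tested with limma 3.58.1 (lmFit and eBayes, two-sided, R 4.3.3) on day and line, with 3 residual degrees of freedom, and a second fit added the interaction of line and period, with 2. The procedure was run on simulated data with independent noise on each array, which does not cover noise shared between arrays. A group above background on no array gives only a bound, "at least N-fold": the bright group's mean against, on each array, the higher of the probe's value and the lowest value among probes above background.

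Every member probe is given, and from each list up to 4 called genes with the lowest p between the lines and after induction, and always Pparg and Cebpa. The values of 1 list gene that this rule names are not reported here. The members and lists were chosen with earlier results of these data known. Alternatives were quantile scaling, normexp (offset 50) with quantile scaling, another percentile, the authors' values, other filters, 1 probe per gene, a variance trend, slide as the block, each slide, line and left-out day, and, added after seeing the data, the first slide alone for day 0 against day -2.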

Additional observations from a re-analysis of the deposited data

Results flagged for a closer look

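For 3 genes of the pathway lists the lines differed one way on both days before induction and the other way on both days after it. The reversal was not tested on single days, and none passed the interaction fitted with limma. Cd36 was 0.46 and 0.33 higher in sh8 at days -2 and 0, and its differences were -0.66 and -1.93 at days +2 and +4 (interaction adjusted p = 0.205). Alpl had -0.98 and -1.47 before and 0.64 and 0.53 after (adjusted p = 0.128). Rxra had 0.25 and 0.085 before and -0.080 and -0.0079 after (adjusted p = 0.481). No member probe reversed in this way.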

How the results depend on the processing

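The count of probes differing between the lines, 8513, ran from 0 to 5212 when 1 day was left out (42 without day 0, and 0 without day +2 or day +4, with 11246 and 10361 at an unadjusted p under 0.05) and was 0 on the first slide alone. The count changed after induction, 11435, ran from 3234 without day +4 to 8554 with 1 day left out, and was 3409 in WT alone and 1750 in sh8 alone. Between days -2 and 0 the count of 0 became 2155 with normexp, 12 in the authors' values, 2232 with the filter on all 8 arrays and 2369 with a variance trend. Between days 0 and +2 the count of 3630 became 2376 with quantile scaling and 2351 in the authors' values. Between days +2 and +4 the count of 0 became 1 with quantile scaling and 1 in the authors' values. For the interaction the count of 0 became 1308, 1331 and 1387 with normexp, the filter on all 8 arrays and the variance trend. Fewer arrays enter the fits with a day, slide or line left out, and the cause of the other shifts was not tested. No called member value changed sign under any alternative. The called line difference of Prdm16 went from 0.35 to -0.0031 with quantile scaling and -0.065 in the authors' values. The fits between the lines pair WT with sh8 by day. By replicate number, no paired analysis was possible because the groups share only the number 1. Among the members, the Ebf2 probe was not well above background on all 8 arrays, which limits how precisely its changes are known.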
